A study of Homo sapiens with 2 samples.

Results

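The 10 genes described here encode death receptors of the TNF receptor family and the adaptors that bind them inside the cell: FAS, TNFRSF10A, TNFRSF10B, TNFRSF10C, TNFRSF10D, TNFRSF1A, TNFRSF12A, FADD, TRADD and CFLAR. They were chosen by name, through their Entrez gene IDs, from the 23033 genes that have a value in the deposited table. All 10 have a value and all 10 reached 1 FPKM in at least 1 library. The RNAseq compared control cells, labelled WT, with FZR1 ko cells, and both were treated with 2 µg/ml cisplatin, a platinum drug that crosslinks DNA. Each condition has 1 library. The labels name T-47D for both, a line of luminal breast cancer, and the FZR1 ko line was made with lentiviral CRISPR/Cas9 and grown from a single cell, so it is 1 clone. FZR1, an activator of the anaphase-promoting complex, directs the complex to proteins that are to be degraded. The time of treatment was not given for this experiment in the sources used here, and untreated cells were not analysed here.

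Death receptors start the extrinsic route to apoptosis. FAS and the TRAIL receptors TNFRSF10A (DR4) and TNFRSF10B (DR5) carry a death domain in the cytoplasm, which recruits the adaptor FADD when ligand is bound. FADD in turn brings in caspase-8, and CFLAR (c-FLIP), a relative of caspase-8 that lacks its proteolytic activity, takes its place in the same complex and limits the signal. TNFRSF10C and TNFRSF10D bind TRAIL but lack a working death domain, and are known as decoys. TNF receptor 1 (TNFRSF1A) recruits TRADD and signals mainly to NF-kB. TNFRSF12A (Fn14), the receptor of TWEAK, has no death domain and acts through TRAF proteins. FAS and TNFRSF10B are well known p53 targets.

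FAS is the only member past 2-fold, outside the TRAIL receptors, whose promoter was found in the promoter table taken from RefSeq (GRCh38.p14). Its sequence is shown for that reason. The gene lies on the plus strand of chromosome 10 from 88964050 to 89017059, and the window shown is chr10:88990548-88990847 on that strand, from 250 bases before to 50 bases after the start site used by the table. The capitals mark matches to the motifs searched, an AP-1 motif (TGANTCA) from base -242 to -236 and an Sp1 motif (GGGCGG) from base -60 to -55.
FAS promoter: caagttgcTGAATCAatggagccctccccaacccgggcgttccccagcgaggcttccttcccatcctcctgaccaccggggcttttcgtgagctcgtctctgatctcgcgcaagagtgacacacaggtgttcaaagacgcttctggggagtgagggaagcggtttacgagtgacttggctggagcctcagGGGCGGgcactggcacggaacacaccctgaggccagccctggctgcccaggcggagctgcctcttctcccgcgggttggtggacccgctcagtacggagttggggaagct
The table holds promoters of 4 members, FAS, FADD, CFLAR and TNFRSF1A. Both strands were searched for AP-1, Sp1, the CRE motif TGACGTCA, the NF-kB motif and the p53 decamer. An AP-1 match was present in 2 of the 4 promoters, FAS and FADD, and in 7.76% of all 27305 promoters of this length. An Sp1 match was present in 3 of the 4 (FAS, FADD and CFLAR) and in 44.6% of all promoters. An NF-kB match was present in CFLAR alone among the 4, from base -97 to -88, where it overlaps the Sp1 match, and in 10.8% of all promoters. None of the 4 windows held the CRE motif (1.98% of all) or the p53 decamer (6.54% of all). Introns and other sequence outside the windows were not searched, so a site there would be missed. A match is a description of letters and not of binding. The GC content of these promoters was 63.0% for FAS, 66.7% for FADD, 58.7% for CFLAR and 55.7% for TNFRSF1A, against a median of 58.3% over all promoters.

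Transcript levels are given as FPKM, the fragments of a gene scaled to the length of its transcript and to the depth of the library, which allows genes to be compared within a library. Differences are log2 ratios of FZR1 ko to control, taken after 1 FPKM was added to each value. This addition understates the difference of low genes such as FAS. With 1 library per condition there is no replicate error, no test was made, and a difference describes these libraries only. In bulk RNA, fewer cells that express a gene and less RNA per cell cannot be told apart. FZR1 itself had 12.3 FPKM in control cells and 10.1 FPKM in FZR1 ko (log2 ratio -0.26), which does not check the labels because an edited gene may still be transcribed. The label of the line was checked against 13 luminal markers. Of these, 7 were below 1 FPKM in both libraries, among them the defining ESR1 (0.04 and 0.13 FPKM in control and FZR1 ko), PGR (0.01 FPKM and listed at 0), GATA3 (0.31 and 0.15 FPKM) and E-cadherin, CDH1 (0.69 and 0.62 FPKM), while KRT8 (829 and 998 FPKM) and KRT18 (552 and 740 FPKM) were abundant and carried most of the marker sum of 1499 and 1834 FPKM. The other markers kept were XBP1 (93.4 and 72.6 FPKM), TFF1 (9.8 and 7.52 FPKM), ERBB3 (7.14 and 9.07 FPKM) and FOXA1 (5.07 and 4.65 FPKM), and SPDEF and KRT19 were below 1 FPKM as well. None of the 6 kept was 2-fold apart, where 13.5% of all genes kept were. The list thus went both ways in both libraries, with 6 markers present and 7, ESR1, PGR, GATA3 and E-cadherin among them, below 1 FPKM against the luminal label. Of 7 mesenchymal and basal markers, 5 were kept. Not kept were the basal keratins KRT5 (0.19 and 0.08 FPKM) and KRT14 (0.14 FPKM in control cells and listed at 0 for FZR1 ko). Vimentin (VIM), an intermediate filament of mesenchymal cells, was high at 315 and 295 FPKM, and CD44 had 65.7 and 59.4 FPKM. CDH2 (N-cadherin) stood at 2.97 FPKM in control cells and 15.3 FPKM in FZR1 ko. The summed level of the 7 was 393 and 380 FPKM. The part of the CDH2 difference in the results below was not tested. Of 6 markers of blood, stromal and endothelial cells, 4 were below 1 FPKM in both libraries, and CD3E and COL1A2 were listed at 0 in both. The 2 that reached it were CD68, at 46.1 and 63.8 FPKM (log2 ratio 0.46), and COL1A1, at 5.13 and 6.25 FPKM (0.24).

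Of the 10 genes, 3 were at least 2-fold lower in FZR1 ko and none was at least 2-fold higher. The 3 are receptors: TNFRSF10D, FAS and TNFRSF12A. Among the 13554 genes kept, those that reached 1 FPKM in either library, 13.5% differed at least 2-fold, 6.72% in the lower and 6.79% in the higher direction. At 1.5-fold, 5 of the 10 were lower, TNFRSF10A and TNFRSF10B in addition, and none was higher, where 35.7% of all genes kept differed, 17.6% in the lower direction. By any amount, 9 of the 10 had the lower FPKM in FZR1 ko and TNFRSF1A had the higher one, where 50.3% of all genes kept were lower. The median log2 ratio of the 10 genes was -0.51, beside -0.0048 over all genes kept. The values ran from -2.41 for TNFRSF10D to 0.20 for TNFRSF1A. The 3 adaptor genes FADD, TRADD and CFLAR lay between -0.30 and -0.20, closer to 0 than any receptor except TNFRSF10C and TNFRSF1A.

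**Figure D1:**
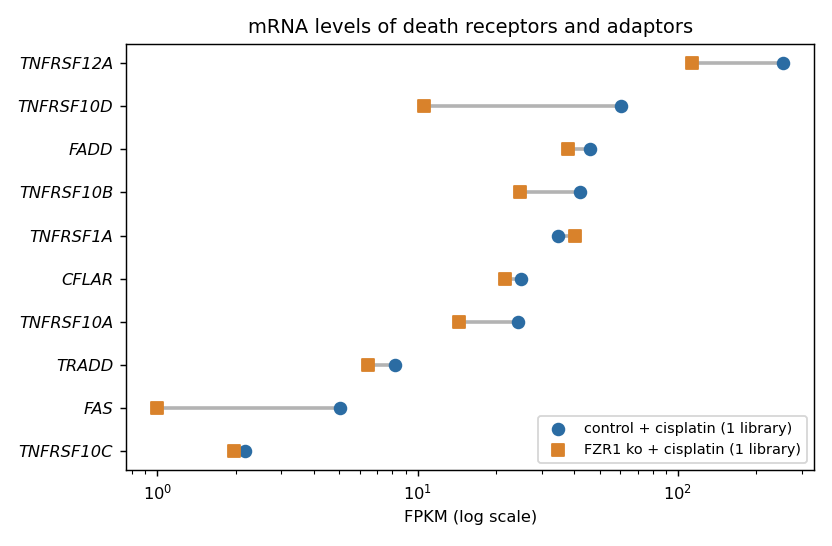
FPKM (log axis) of the 10 genes in the control library (circles) and the FZR1 ko library (squares), both with cisplatin, ordered by the level in control. TNFRSF12A is the highest in both libraries, and the widest gaps are those of TNFRSF10D (60.3 to 10.6 FPKM) and FAS (5.04 to 1.0 FPKM).

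The TRAIL receptors differed among themselves. TNFRSF10D, the decoy with a truncated death domain, had 60.3 FPKM in control cells and 10.6 FPKM in FZR1 ko (log2 ratio -2.41). Its level in FZR1 ko was 17.5% of that in control, and 42 of the 13554 genes kept had a ratio as low or lower. With 1 FPKM added, TNFRSF10D was the only member at least 4-fold lower, where 0.657% of all genes kept were. TNFRSF10B, the death domain receptor DR5, had 42.1 FPKM in control cells and 24.8 FPKM in FZR1 ko (log2 ratio -0.74). TNFRSF10A, the death domain receptor DR4, had 24.2 FPKM in control cells and 14.4 FPKM in FZR1 ko (log2 ratio -0.71). These receptors thus stayed within 2-fold, at 58.9% and 59.4% of the control level, and the ratio of TNFRSF10B to TNFRSF10A was 1.74 in control and 1.72 in FZR1 ko. TNFRSF10C, a decoy anchored to the membrane by a lipid, was low in both libraries, at 2.18 and 1.97 FPKM, a log2 ratio of -0.10.

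The make-up of the TRAIL receptor mRNA therefore differed between the libraries. The 4 receptors summed to 129 FPKM in control cells and 51.7 FPKM in FZR1 ko. TNFRSF10D made up 46.8% of this sum in control and 20.4% in FZR1 ko, TNFRSF10B 32.7% and 47.9%, TNFRSF10A 18.8% and 27.8%, and TNFRSF10C 1.69% and 3.81%. The decoys together had 62.5 FPKM in control, close to the 66.3 FPKM of the death domain receptors, a ratio of 0.942. In FZR1 ko they had 12.5 FPKM against 39.2 FPKM, a ratio of 0.320. The order of the receptors also differed, since TNFRSF10D was the highest of the 4 in control and only the third in FZR1 ko. In neither library is there a spread against which this order could be judged.

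**Figure D2:**
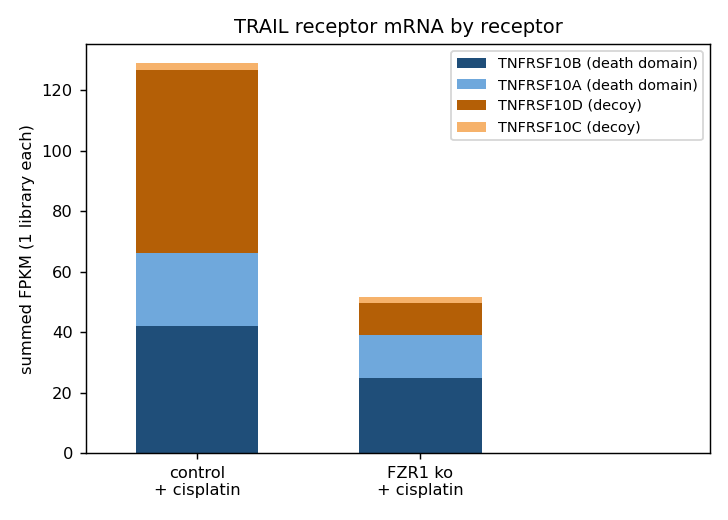
Summed FPKM of the TRAIL receptors in the control and FZR1 ko libraries, both with cisplatin, with each bar divided by receptor. The sum is 129 FPKM in control cells and 51.7 FPKM in FZR1 ko, and TNFRSF10D goes from 60.3 to 10.6 FPKM of it.

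The 4 TRAIL receptor genes lie within 205 kb of each other on chromosome 8, in the order TNFRSF10B, TNFRSF10C, TNFRSF10D and TNFRSF10A in the RefSeq table. TNFRSF10C, between TNFRSF10B and TNFRSF10D, was the least different of the 4, and TNFRSF10D, beside it, the most. On one side of the cluster RHOBTB2 had 9.19 and 9.52 FPKM in control and FZR1 ko. On the other side the noncoding TNFRSF10A-DT had 11.6 and 7.47 FPKM (log2 ratio -0.57), CHMP7 had 31.1 and 24.2 FPKM (-0.35) and R3HCC1 had 19.9 and 19.4 FPKM (-0.03). Farther on that side LOXL2 had 7.76 and 15.4 FPKM, in the opposite direction (0.91), and ENTPD4 had 12.3 and 8.0 FPKM (-0.56). None of these flanking genes was 2-fold apart on this scale, where 13.5% of all genes kept were. Because the receptors are related, reads could be divided between them, so stretches of 50 bases were compared among all GENCODE 44 transcripts. None of the stretches of a TRAIL receptor occurred in another of the 10 genes, and at most 1.03% of those of TNFRSF10A, TNFRSF10B and TNFRSF10D occurred in any other gene. For TNFRSF10C 28.0% occurred in other annotated genes, ENSG00000284948 and ENSG00000284956, which overlap it on the same strand, so its low value is the least certain of the 4. Exons of TNFRSF10A and TNFRSF10B also overlap genes on the opposite strand, TNFRSF10A-DT and RHOBTB2, over 9.09% and 7.52% of their exon bases, and whether the counting used strand is not given in the sources used here.

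FAS had 5.04 FPKM in control cells and 1.0 FPKM in FZR1 ko (log2 ratio -1.59). It was above 35.4% of the genes kept in control and above 5.70% of them in FZR1 ko, and 223 genes had a ratio as low or lower. With 5 FPKM added in place of 1 FPKM, the log2 ratio was -0.74 and FAS was no longer past 2-fold. With nothing added, the level in FZR1 ko was 19.8% of that in control (log2 ratio -2.33), which is past 4-fold. The level of FAS was low in both libraries, and since FPKM holds no number of reads, the counting error of the value in FZR1 ko is unknown. On the same strand FAS overlaps STAMBPL1, which went the other way (6.0 and 12.5 FPKM), over 0.566% of its exon bases. On the opposite strand it overlaps ACTA2 (0.78 and 0.19 FPKM) over 1.32%, and a noncoding gene, ENSG00000286116, over 6.48%.

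TNFRSF12A was the most abundant member, with 254 FPKM in control cells and 114 FPKM in FZR1 ko (log2 ratio -1.15). It ranked 276 among all genes in control and 708 in FZR1 ko, so it was among the highly expressed genes in both. Of the genes kept, 4.53% had a ratio as low or lower. TNFRSF12A lies on the plus strand of chromosome 16 from 3020368 to 3022383. CLDN6, on the opposite strand, overlaps 40 of its exon bases (2.22%) and had 8.03 and 0.38 FPKM. No 50-base stretch of TNFRSF12A occurred in another gene.

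TNFRSF1A, the first receptor of TNF, was the only member with the higher value in FZR1 ko, with 34.8 FPKM in control cells and 40.1 FPKM in FZR1 ko (log2 ratio 0.20). It lies on the minus strand of chromosome 12 from 6328771 to 6342076. Its adaptor TRADD had 8.16 FPKM in control cells and 6.45 FPKM in FZR1 ko (-0.30), and lies on the minus strand of chromosome 16 from 67154185 to 67159909. The ratio of receptor to adaptor mRNA was 4.26 in control and 6.22 in FZR1 ko. Both differences lay well within 2-fold, as 62.5% of the genes kept had a ratio at or below that of TNFRSF1A and 31.6% at or below that of TRADD.

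FADD, the adaptor of FAS and the TRAIL receptors, had 46.1 FPKM in control cells and 38.0 FPKM in FZR1 ko (log2 ratio -0.27). It lies on the plus strand of chromosome 11 from 70203296 to 70207390, and a noncoding gene on the opposite strand, ENSG00000254721, covers 59.2% of its exon bases. CFLAR had 25.1 FPKM in control cells and 21.7 FPKM in FZR1 ko (log2 ratio -0.20). It lies on the plus strand of chromosome 2 from 201116164 to 201176687. The table gives 1 value per gene, so the long and short forms of c-FLIP, which differ in the protein, cannot be told apart. CASP8, which encodes the caspase that both act on, had 15.0 and 14.6 FPKM (-0.04). CFLAR stood at 0.544 of FADD in control and 0.570 in FZR1 ko, and at 1.67 of CASP8 in control and 1.49 in FZR1 ko. The ratio of FADD to CASP8 was 3.08 in control and 2.61 in FZR1 ko. The proportions of adaptor, inhibitor and caspase mRNA thus differed little between the libraries. The mRNA of FAS, TNFRSF10A and TNFRSF10B, which recruit FADD, was lower in FZR1 ko. Only FAS, low in both libraries, was past 2-fold among them, and TNFRSF1A was slightly higher (0.20).

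**Figure D3:**
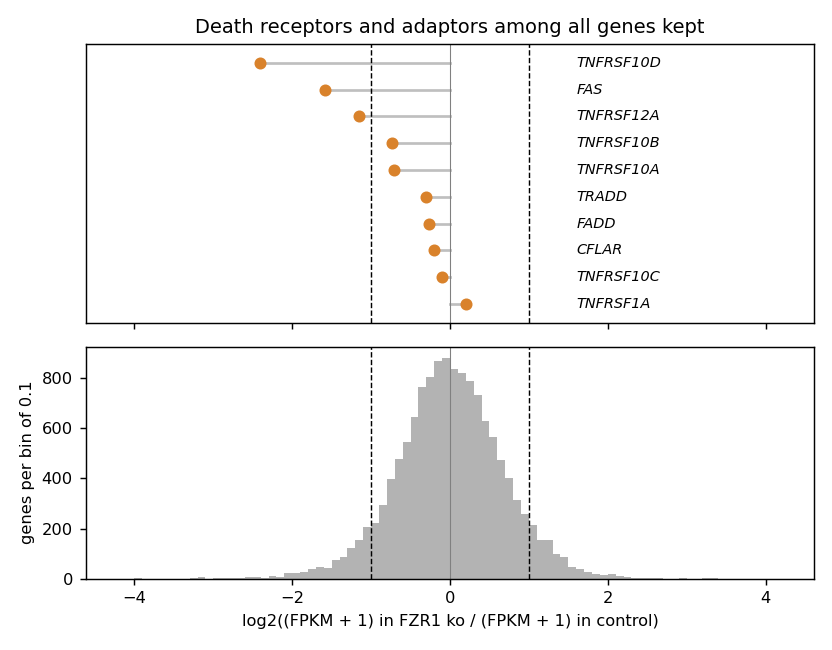
Upper panel, log2 ratio of FZR1 ko to control (FPKM + 1) for each of the 10 genes; lower panel, the same ratio for all 13554 genes kept, in bins of 0.1. Dashed lines mark 2-fold, and TNFRSF10D, FAS and TNFRSF12A lie beyond the lower one.

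Of 6 ligand genes of the TNF family, 4 were below 1 FPKM in both libraries, and FASLG, the ligand of FAS, was listed at 0 in both. TNFSF10, which encodes TRAIL, had 0.11 FPKM in control cells and 0.20 FPKM in FZR1 ko. TNFSF12, which encodes TWEAK, the ligand of TNFRSF12A, had 0.85 and 2.26 FPKM (log2 ratio 0.82), which is 2.66-fold higher with nothing added. TNF, the ligand of TNFRSF1A, was the only ligand at least 2-fold apart with 1 FPKM added, with 11.1 FPKM in control cells and 1.01 FPKM in FZR1 ko (-2.59). The ligand and receptor of the same pair thus did not share a direction for TNF and TNFRSF1A, nor for TNFSF12 and TNFRSF12A. The difference of TNFRSF1A was small (0.20), however, and TNFSF12 was below 1 FPKM in control cells. With 1 library per condition, such directions describe these libraries only.

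Of 8 other receptors of the family, 4 were kept and none was 2-fold apart, where 13.5% of all genes kept were. TNFRSF21 (DR6) had 12.4 and 20.6 FPKM (0.69), and TNFRSF25 (DR3) had 4.2 and 3.54 FPKM (-0.20). TNFRSF1B, the second TNF receptor, had 3.86 and 2.45 FPKM (-0.49), and the soluble decoy TNFRSF6B had 2.91 and 3.16 FPKM (0.09). Reads of TNFRSF6B are hard to separate from the readthrough gene RTEL1-TNFRSF6B, which had 3.06 and 3.33 FPKM. TNFRSF11B, a soluble receptor that also binds TRAIL, had 0.08 FPKM in control cells and is listed at 0 for FZR1 ko. EDA2R, a receptor known as a p53 target, had 0.02 FPKM in control cells and is listed at 0 for FZR1 ko.

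Inside the cell, 10 caspases and modulators of the death-inducing signalling complex were examined, and 8 had lower and 2 had higher FPKM in FZR1 ko, with a median log2 ratio of -0.39, where 50.3% of all genes kept were lower. Of the 10, 1 was at least 2-fold lower and 1 at least 2-fold higher, near the 6.72% and 6.79% of all genes kept. PEA15, a death effector domain protein that binds FADD and caspase-8, had 202 FPKM in control cells and 99.6 FPKM in FZR1 ko (-1.01), close to the 2-fold limit. FAF1, which binds FAS, had 2.27 and 7.56 FPKM (1.39). CASP10 had 3.82 and 2.38 FPKM (-0.51), and BID, which links caspase-8 to mitochondria, had 23.0 and 21.7 FPKM (-0.08). DAXX had 102 and 60.5 FPKM (-0.75), and DEDD2, which carries a death effector domain, 40.9 and 22.5 FPKM (-0.84), against 28.1 and 23.3 FPKM (-0.26) for the related DEDD.

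In the TNF receptor 1 signalling complex, 11 of the 19 genes were lower and 8 higher, where 50.3% of all genes kept were lower. Their median log2 ratio was -0.07. At least 2-fold lower were 3 genes, where 6.72% of all genes kept were, and none was at least 2-fold higher. CYLD, a deubiquitinase that limits NF-kB signalling, had 10.8 and 3.47 FPKM (-1.39), and SPATA2, which tethers CYLD to the complex, had 19.6 and 9.14 FPKM (-1.02). BIRC2 (cIAP1), a ubiquitin ligase of the complex, had 39.7 and 19.1 FPKM (-1.02), and RBCK1, a subunit of the linear ubiquitin ligase, had 71.8 and 72.4 FPKM (0.01). SHARPIN, of the same ligase, had 41.6 and 47.6 FPKM (0.19). TNFAIP3 (A20), an inhibitor of the pathway, had 38.1 and 22.6 FPKM (-0.73). RIPK1, the kinase bound by TRADD, had 13.5 and 10.9 FPKM (-0.28).

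Downstream of TNFRSF12A, 4 of the 5 genes of the TRAF and NIK branch were higher in FZR1 ko, where 49.6% of all genes kept were, none of them 2-fold, with a median of 0.47. TRAF3 had 3.07 and 6.08 FPKM (0.80), and MAP3K14 (NIK), the kinase it holds in check, had 5.53 and 8.02 FPKM (0.47). TRAF2 had 25.9 and 33.1 FPKM (0.34) and TRAF5 had 8.22 and 13.0 FPKM (0.60), both of them also counted in the TNF receptor 1 complex. TRAF1 had 3.73 and 1.56 FPKM (-0.89). Of the 3 necroptosis genes, RIPK3 had no value, ZBP1 was below 1 FPKM in both libraries and MLKL, the effector, had 26.2 and 27.6 FPKM (0.07).

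**Figure D4:**
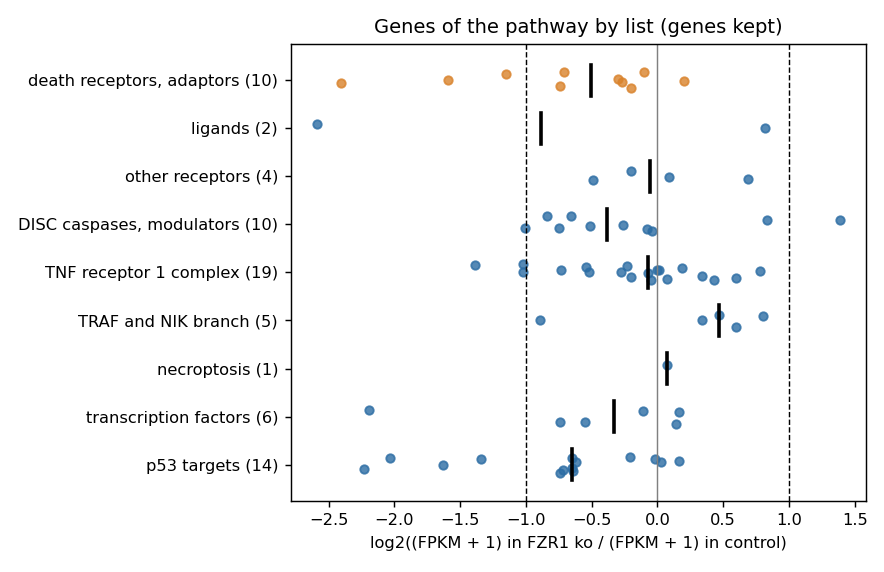
Log2 ratio of FZR1 ko to control (FPKM + 1) for each gene kept in the lists of the pathway, with the number of genes kept in brackets; each point is a gene, the short black lines are medians and the dashed lines mark 2-fold. The medians run from -0.89 for the ligands (2 genes) to 0.47 for the TRAF and NIK branch, and that of the death receptors and adaptors is -0.51.

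Of 7 transcription factors that are known to act on these receptor genes, 6 were kept and 1, JUN, was at least 2-fold apart, where 13.5% of all genes kept were. JUN had 153 FPKM in control cells and 32.9 FPKM in FZR1 ko (-2.19). RELA had 154 and 91.7 FPKM (-0.74), ATF4 had 159 and 148 FPKM (-0.11) and DDIT3 (CHOP), which acts on TNFRSF10B, had 19.3 and 12.9 FPKM (-0.55). Among 14 p53 targets outside the death receptor family, 12 had lower and 2 had higher FPKM in FZR1 ko, where 50.3% of all genes kept were lower. Their median was -0.65, and 4 of them were past 2-fold, all lower, where 6.72% of all genes kept were at least 2-fold lower. PMAIP1 (-2.23), CDKN1A (-2.03) and GDF15 (-1.63) lay between FAS (-1.59) and TNFRSF10D (-2.41), and AEN was at -1.34, while PHLDA3 was at -0.02 and SESN1 was higher, at 0.16.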

How the data were processed

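Total RNA of 2 cisplatin-treated samples was sequenced on a BGISEQ-500. With Bowtie2 and RSEM the authors mapped the reads to transcripts of hg38, taken from UCSC, and they deposited FPKM per Entrez gene ID. The submitters' processing notes also name Trimmomatic 0.36, HISAT2 2.1.0 and Bowtie2 2.2.5, with no order. The release of the gene annotation and the filters are not given in the sources used here. Of 24663 rows, 1630 had no value (2 of them hold no gene ID), 23033 were used and 22925 (99.5%) matched a RefSeq symbol. The table had 0 other value columns. Depth is unknown. In 46 of 244 short RNA genes the ratio of FZR1 ko to control was within 0.5% of 0.979, or a depth of FZR1 ko about 1.02 times that of control. Log2 ratios used a pseudocount of 1 FPKM, genes of at least 1 FPKM in at least 1 library and a 2-fold threshold. The code was checked on simulated data with planted 4-fold changes and little noise. That checks the code only, not the calls of low genes such as FAS. No test was made with 1 library per condition. The genes and lists were written with earlier results of these data known. Named are all 10 genes, FZR1, and, from each list, genes past 2-fold and up to 4 of the highest FPKM; others in the text were chosen after their values were seen. Some values within this rule are not reported here. Alternatives changed the pseudocount (0.1 or 5 FPKM, or 1 FPKM added in the ratios), filter, scale (TPM), centring and threshold (1.5-fold or 4-fold). Protein-coding genes only, and no pseudocount, were alternatives chosen after seeing the data. Python 3.11.15, numpy 2.4.6, pandas 2.3.3, matplotlib 3.10.9 and GENCODE 44 were used.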

Additional observations from a re-analysis of the deposited data

How the results depend on the processing

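No paired analysis was possible because there is only 1 library for control and 1 for FZR1 ko, so no replicate could be left out either. All 50 values of the single genes under the alternatives kept their direction, and 45 moved by less than 0.2. The direction was kept by construction, since a pseudocount cannot turn it and both libraries were rescaled nearly alike. The median used for centring was only -0.0048. FAS moved most, from -2.33 with no pseudocount to -0.74 with 5 FPKM, where it was no longer 2-fold lower and 2 of the 10 genes were. At 1.5-fold 5 of the 10 genes were lower and none higher, and at 4-fold 1 was. Among all genes 1831 differed at least 2-fold, 911 lower and 920 higher. With a pseudocount of 0.1 FPKM 2824 did, 1463 of them higher, and with 5 FPKM 453 did, 270 lower and 183 higher. At 1.5-fold 4833 did, 2391 lower and 2442 higher, and at 4-fold 150 did, 89 lower and 61 higher. Such counts shrink by construction as the pseudocount or threshold grows. Of the 48 medians of the pathway lists 44 moved by less than 0.2. That of the ligands was -0.56 with 5 FPKM, -0.08 without a filter and -2.59 with 1 FPKM in both libraries, where only TNF is left. The median of the transcription factors was -0.11 without a filter, where 1 more gene enters, in place of -0.33. Without a filter the necroptosis median was -0.12 in place of 0.07. The ratios within a library moved little with 1 FPKM added. Because FPKM holds no reads, the counting error of each gene is unknown.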

Other observations

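Outside the 10 genes and the lists, 3 further receptors of the TNF family were kept, and they were looked at after the values were seen. TNFRSF9 (4-1BB), a costimulatory receptor of lymphocytes, had 1.79 FPKM in control cells and 0.74 FPKM in FZR1 ko (log2 ratio -0.68). TNFRSF13C, the receptor of BAFF, had 1.76 and 0.51 FPKM (-0.87), and TNFRSF14 (HVEM) had 1.87 and 3.52 FPKM (0.66). None was 2-fold apart with 1 FPKM added, where 13.5% of all genes kept were. With nothing added, TNFRSF9 and TNFRSF13C were more than 2-fold lower in FZR1 ko.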
